A study of Homo sapiens with 8 samples.

Results

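G1 cyclins, their kinases CDK4 and CDK6, and the CDK inhibitors were followed by RNA sequencing in MOLM-13 cells exposed to the immunoproteasome inhibitor PR-957. Members were the rows of the count table with the gene names CCND2, CCND3, CCNE1, CCNE2, CDK4, CDK6, CDKN1A, CDKN1B, CDKN2C and CDKN2D, 10 of 38551 genes. All 10 passed the filter on low counts. MOLM-13 is an established human acute myeloid leukemia line that carries a rearranged KMT2A gene, and all libraries came from this single line. Cells of 4 libraries received 100 nM PR-957, also called ONX-0914, which inhibits the immunoproteasome subunit PSMB8, and cells of the other 4 libraries received the diluent DMSO, each for 72 h. The sources used here do not say whether replicates were separate cultures, so p-values measure the spread between these libraries, which may be technical.

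Passage from G1 into S phase is controlled by cyclin-dependent kinases. D-type cyclins pair with CDK4 or CDK6 and E-type cyclins pair with CDK2, and both kinase complexes phosphorylate the retinoblastoma protein RB1, which then releases E2F transcription factors. INK4 inhibitors such as CDKN2C (p18) and CDKN2D (p19) bind CDK4 and CDK6 directly, whereas the CIP/KIP inhibitors CDKN1A (p21) and CDKN1B (p27) bind cyclin-CDK complexes and block CDK2. The kinase CDK6 and D-type cyclins are prominent in myeloid and KMT2A-rearranged leukemia cells. Several of these proteins are also destroyed by the proteasome, which RNA counts do not measure.

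Total counts per library ran from 16675036 to 23111223, and member genes had between 126 and 6666 counts per library. Of 13179 tested genes, 3045 were higher and 3098 lower (quasi-likelihood test of edgeR, adjusted p below 0.05), and the split was 4066 higher and 2353 lower when libraries were scaled by their totals alone. All 8 myeloid and leukocyte markers that were examined, among them CD33, SPI1, CEBPA and FLT3, had at least 585 counts in every library, and their summed level was 1770 to 1900 CPM with DMSO and 2190 to 2470 CPM with PR-957. Of these 8 markers, LYZ, SPI1 and CSF3R rose and FLT3, PTPRC and ITGB2 fell. LYZ had the largest change, from 153 to 819.98 CPM on average, while FLT3 went from 340.4 to 173 CPM. Of 10 markers of T cells, B cells, erythroid, epithelial, stromal and endothelial cells, CD3E had 0 counts in all libraries and MS4A1 had at most 1, and 8 of the 10 failed the filter on low counts. The summed level of these 10 markers was 42.6 to 64.9 CPM (counts scaled to library size) in DMSO and 84.9 to 91.1 CPM with PR-957, with PECAM1, which myeloid cells also express, at 49.2 and 83.0 CPM on average. The part of such cells in the results was not tested. DMSO replicate 4 stood furthest from its group in the counts of all genes. Values without it are given for CCNE1, CCNE2, CDK4, CDKN2D and several other genes of the pathway.

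Upstream sequences are shown for CCNE1, the member with the largest change, for both CIP/KIP inhibitors, and for CDK4, a known MYC target with the highest level. Sequences came from RefSeq (GRCh38.p14, whose primary chromosomes have the coordinates of hg38) and cover the 250 bases before the gene start, read 5′ to 3′ on the strand of the gene. A window was found for 8 of 10 members, and not for CCND2 and CCNE2. CCNE1 lies on chromosome 19 (chr19:29811741-29811990, plus strand), CDKN1A on chromosome 6 (chr6:36678464-36678713, plus strand) and CDKN1B on chromosome 12 (chr12:12717118-12717367, plus strand). CDK4 also lies on chromosome 12 (chr12:57752311-57752560, minus strand). Capitals mark the GC box GGGCGG or its reverse complement CCGCCC in the first 3 sequences, and the E-box CACGTG in the sequence of CDK4.
CCNE1: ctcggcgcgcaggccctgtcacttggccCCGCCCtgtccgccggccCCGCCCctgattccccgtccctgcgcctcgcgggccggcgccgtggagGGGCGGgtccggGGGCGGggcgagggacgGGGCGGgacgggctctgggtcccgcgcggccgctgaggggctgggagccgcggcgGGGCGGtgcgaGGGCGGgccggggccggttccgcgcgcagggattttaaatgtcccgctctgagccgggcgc
CDKN1A: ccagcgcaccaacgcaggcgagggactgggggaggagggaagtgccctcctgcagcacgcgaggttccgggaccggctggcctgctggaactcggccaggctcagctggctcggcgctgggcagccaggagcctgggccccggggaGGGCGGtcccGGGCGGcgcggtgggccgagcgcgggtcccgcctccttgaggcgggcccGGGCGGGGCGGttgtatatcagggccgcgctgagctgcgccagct
CDKN1B: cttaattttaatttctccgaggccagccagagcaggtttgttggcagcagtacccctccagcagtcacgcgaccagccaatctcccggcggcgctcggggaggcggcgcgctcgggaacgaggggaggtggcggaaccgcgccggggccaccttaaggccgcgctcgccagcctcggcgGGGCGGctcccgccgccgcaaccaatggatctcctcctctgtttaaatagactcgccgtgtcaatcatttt
CDK4: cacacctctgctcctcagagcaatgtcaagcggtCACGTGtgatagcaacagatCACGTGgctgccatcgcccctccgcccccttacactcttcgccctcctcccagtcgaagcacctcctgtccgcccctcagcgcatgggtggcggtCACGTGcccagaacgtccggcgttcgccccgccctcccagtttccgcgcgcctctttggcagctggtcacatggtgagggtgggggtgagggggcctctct
The window of CCNE1 held 7 GC boxes, that of CDKN1A 4, of which 2 overlap, and that of CDKN1B 1. Among 9912 tested genes with a window, 66.5% held at least 1 GC box on either strand. In CDK4 the E-box was found 3 times, at positions -216, -196 and -101 relative to the gene start, against 9.05% of tested genes with at least 1. Of the 8 members with a window, 7 held a GC box and 2, CDK4 and CDKN2C, held an E-box. Of the same 8, 0 held any of the E2F words TTTGGCGC, TTTCCCGC, TTTGCCGC and TTTCGCGC. These words were present in 4.56% of the windows of tested genes. At such a share, 0 of 8 does not set the members apart, and variants of these words were not searched. GC content ran from 45.6% to 81.2%, where the median of tested genes was 64.8%. The count table places the start of some genes further upstream, so that all 250 bases shown for CDKN1A and 98 of those shown for CDKN1B lie inside the gene, as do 206 bases of the window of CCND3 and 54 of that of CDK6. For CDKN2C the RefSeq start lies outside the gene. A match is a description of letters and does not show that a factor was bound.

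Treatment with PR-957 changed 7 of 10 members by the same test and threshold, with 2 higher and 5 lower. Across all tested genes 46.6% were called, 23.1% higher and 23.5% lower, which is the background for the members' counts. Both E-type cyclins rose, one D-type cyclin fell, and the inhibitors CDKN1A, CDKN1B and CDKN2C fell together with a small decrease of CDK6. With a threshold of at least 1.5-fold, CCNE1 and CCNE2 were higher and CCND2 was lower, where 6.8% of all tested genes were higher and 7% lower at this threshold. The 2 groups of libraries did not overlap for 6 members, all of them called, against 42.5% of all tested genes. The median log2 fold change was -0.19 over the members and 0.003 over all tested genes. In bulk RNA, a change in the share of cells in a cell cycle phase and a change of RNA per cell cannot be told apart, nor can fewer cells of a type be told from less RNA per cell.

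**Figure D1:**
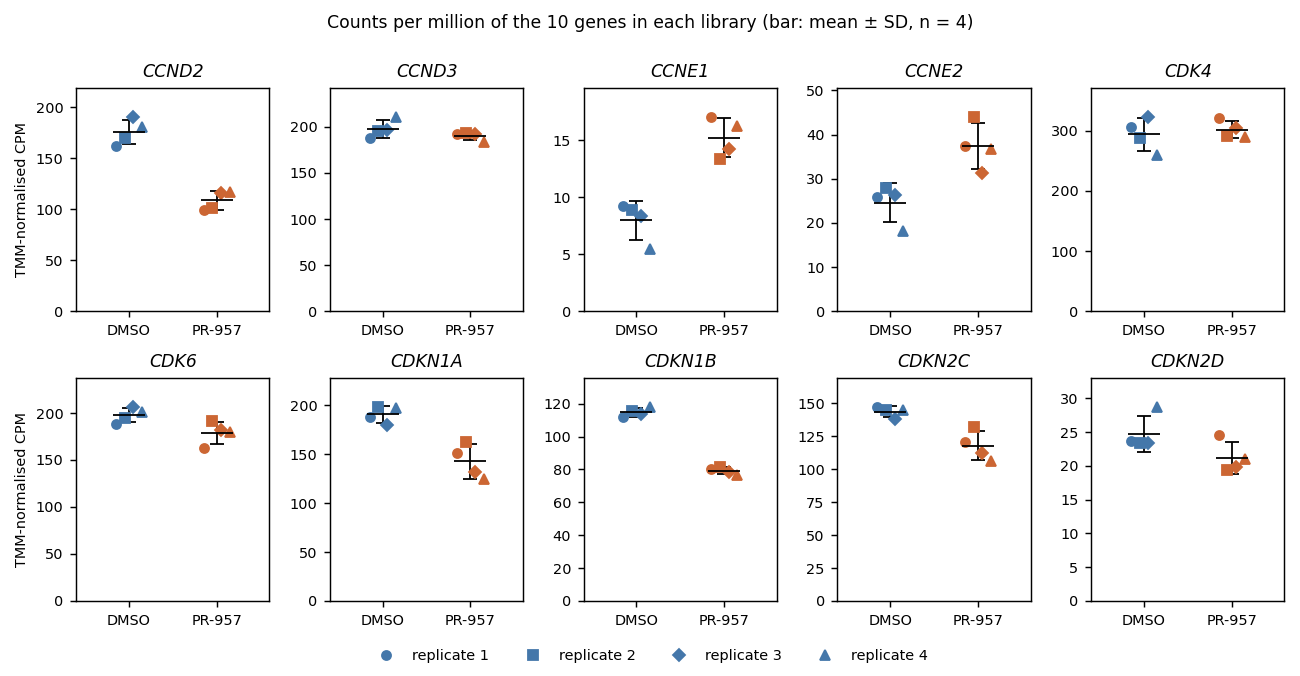
Normalised counts (CPM, counts scaled to library size, vertical axes, each from 0) of the 10 genes in 4 DMSO and 4 PR-957 libraries, with 1 symbol per replicate number and the mean ± SD. The groups are separate for CCND2, CCNE1, CCNE2, CDKN1A, CDKN1B and CDKN2C, and DMSO replicate 4 is the lowest DMSO library for both E-type cyclins.

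Among the D-type cyclins, which link growth factor signals to CDK4 and CDK6, CCND2 fell and CCND3 was not called. CCND2 (chromosome 12, 4273762 to 4305353, plus strand) had 162, 169.7, 190.2 and 180.4 CPM in DMSO replicates 1 to 4 and 99.5, 102, 116 and 117 CPM in PR-957 replicates 1 to 4. Every PR-957 library was below every DMSO library. The decrease was 1.62-fold, a log2 fold change of -0.69 (SE 0.07, edgeR adjusted p = 8.05e-08), and it was the largest decrease among the members. CCND3 (chromosome 6, 41934933 to 42048894, minus strand) had 187, 195, 196 and 210.3 CPM with DMSO and 192, 194, 193 and 183 CPM with PR-957. The groups overlapped, and the log2 fold change was -0.05 (SE 0.05, edgeR adjusted p = 0.427). Its sign changed with library totals alone (0.02) and in replicates 1 and 2 only (0.01).

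Levels of different genes were set side by side as CPM per kilobase of exon (RPKM). The length was that of all annotated exons, 6493 bases for CCND2 and 3161 for CCND3. It may differ from the length of the transcripts in these cells, which was not examined. On this scale CCND2 made up 30.2 ± 1.22% of the summed D-type cyclin level in DMSO and 21.7 ± 1.78% in PR-957 libraries (SD, n = 4). The ranges were 29.5% to 32.0% and 20.2% to 23.8%. The sum of both fell from 89.5 ± 4.33 to 76.9 ± 1.32 RPKM. CCND1, the third D-type cyclin, was low, with 14.6 ± 1.53 CPM with DMSO and 13.3 ± 1.06 CPM with PR-957, and was not called (log2 fold change -0.13, SE 0.10, edgeR adjusted p = 0.29).

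The E-type cyclins, which activate CDK2 at the start of S phase, were the lowest members per kilobase of exon and rose. CCNE1 (chromosome 19, 29811991 to 29824312, plus strand) had 9.27, 8.85, 8.39 and 5.50 CPM in DMSO replicates 1 to 4. Its level was 17.0, 13.4, 14.3 and 16.3 CPM in PR-957 replicates 1 to 4. All PR-957 libraries were above all DMSO libraries, and the increase of 1.92-fold was the largest change among the members (log2 fold change 0.94, SE 0.14, edgeR adjusted p = 3.15e-05). These values rest on 126 to 159 counts per DMSO library and 256 to 313 counts per PR-957 library. CCNE2 (chromosome 8, 94880224 to 94896671, minus strand) had 26.0, 28.0, 26.3 and 18.3 CPM with DMSO and 37.4, 44.0, 31.4 and 36.8 CPM with PR-957. Again no library overlapped, with an increase of 1.52-fold (log2 fold change 0.61, SE 0.14, edgeR adjusted p = 0.00364). DMSO replicate 4 was the lowest library for both genes. Leaving this library out gave 0.78 for CCNE1 and 0.48 for CCNE2 on the log2 scale, with edgeR adjusted p of 6.68e-06 and 0.000301.

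The summed E-type cyclin level was 10.5 ± 1.97 RPKM in DMSO and 17.4 ± 1.38 RPKM in PR-957 libraries. The ratio of summed D-type to summed E-type cyclin level was 7.36, 7.49, 8.26 and 12.5 in DMSO replicates 1 to 4. In PR-957 replicates 1 to 4 it was 4.14, 4.23, 5.11 and 4.27, lower than in each DMSO library. CCNE2 made up 58.6% to 62.6% of the E-type sum in DMSO. Its share was 52.5% to 53.3% in PR-957 replicates 1, 3 and 4 and 62.4% in PR-957 replicate 2, so the groups overlapped.

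Of the kinases that D-type cyclins activate, CDK4 was not called and CDK6 showed a small decrease. CDK4 (chromosome 12, 57747727 to 57752310, minus strand) had 306, 288, 323 and 259.7 CPM with DMSO and 321, 292, 304 and 290.4 CPM with PR-957. The ranges overlapped throughout (log2 fold change 0.04, SE 0.06, edgeR adjusted p = 0.639), and the sign changed without DMSO replicate 4 (-0.02). CDK6 (chromosome 7, 92604921 to 92836627, minus strand) had 189, 194, 207 and 202 CPM with DMSO and 163, 191, 182 and 179 CPM with PR-957. PR-957 replicate 2 lay inside the DMSO range and the other PR-957 libraries lay below it. The log2 fold change was -0.14 (SE 0.06, edgeR adjusted p = 0.0458). The study names CDK6 among targets of KMT2A that fell, so its choice was made on these libraries and is not independent evidence. The decrease here was 1.10-fold, and DESeq2 gave a log2 fold change of -0.15. Neither reaches the fold-change threshold that the study states for the heatmap it cites. Only 9 of 19 alternative analyses kept the call of CDK6, with adjusted p from 0.0115 to 0.372. It was lost when DMSO replicate 2 (0.064) or DMSO replicate 3 (0.124) was left out, and likewise for PR-957 replicate 1 (0.134), PR-957 replicate 3 (0.0769) or PR-957 replicate 4 (0.0643). With library totals alone the log2 fold change was -0.07 (adjusted p = 0.372). Per kilobase, CDK4 was the highest member in both groups, at 158 ± 14.4 RPKM in DMSO and 162 ± 7.51 RPKM in PR-957 libraries. On this scale CDK6 made up 9.47 ± 0.882% and 8.41 ± 0.817% of the sum of both kinases. The annotated exons of CDK6 have 12074 bases and those of CDK4 1865, so this share depends on the annotation.

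Both CIP/KIP inhibitors fell. CDKN1B (p27; chromosome 12, 12717270 to 12722383, plus strand) had 112, 115, 114 and 118 CPM with DMSO and 80.2, 81.5, 78.4 and 76.5 CPM with PR-957. The groups were far apart relative to their spread. The decrease was 1.45-fold (log2 fold change -0.54, SE 0.05, edgeR adjusted p = 1.01e-07). CDKN1A (p21; chromosome 6, 36676250 to 36687339, plus strand) had 189, 199, 179.6 and 197 CPM with DMSO and 152, 163, 131 and 125 CPM with PR-957. No PR-957 library reached the lowest DMSO library, and the decrease was 1.34-fold (log2 fold change -0.42, SE 0.07, edgeR adjusted p = 0.000143). Replicates 1 and 2 alone gave -0.30 and replicates 3 and 4 alone gave -0.56, both past the threshold.

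Of the INK4 inhibitors, CDKN2C fell and CDKN2D was not called. CDKN2C (p18; chromosome 1, 50968695 to 50974634, plus strand) had 147, 145, 138 and 145 CPM with DMSO and 120.3, 132, 113 and 106 CPM with PR-957. The groups did not overlap, with a decrease of 1.22-fold (log2 fold change -0.29, SE 0.06, edgeR adjusted p = 0.000829). CDKN2D (p19; chromosome 19, 10566460 to 10568979, minus strand) had 23.6, 23.3, 23.4 and 28.7 CPM with DMSO and 24.6, 19.4, 19.9 and 21.03 CPM with PR-957. PR-957 replicate 1 lay among the DMSO libraries. The log2 fold change was -0.23 (SE 0.09, edgeR adjusted p = 0.0514), and 7 of 19 alternatives put it past the threshold, with adjusted p from 0.0145 to 0.518. Among these were the fits without DMSO replicate 2 (0.0482) and without PR-957 replicate 1 (0.0145). Without DMSO replicate 4, its highest library, the log2 fold change was -0.15.

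**Figure D2:**
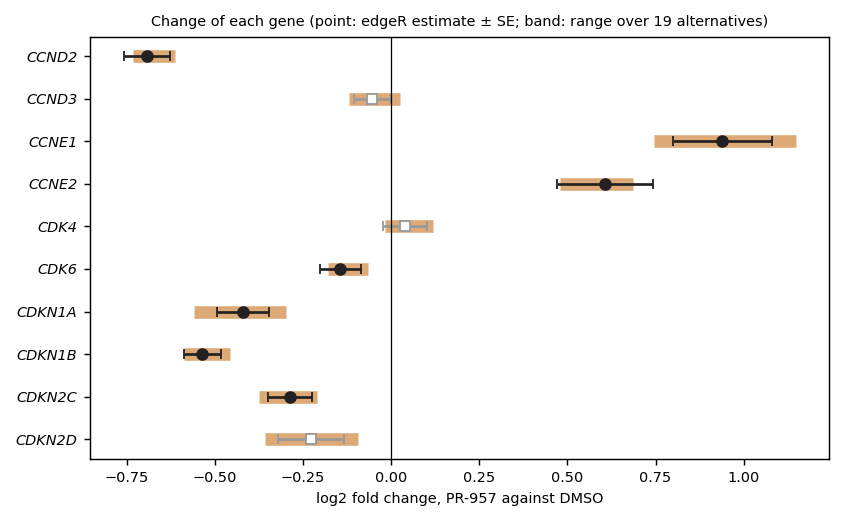
Log2 fold change of each gene between PR-957 and DMSO (horizontal axis). Points give the edgeR estimate with its SE, filled where the adjusted p was under 0.05 and open for CCND3, CDK4 and CDKN2D, and bands give the range over 19 alternative analyses. The bands of CCND3 and CDK4 cross 0, whereas those of the other genes keep their direction. Of these, CDK6 and CDKN2D were called in only 9 and 7 of 19 alternatives.

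Summed over both genes, CIP/KIP inhibitor level fell from 113 ± 3.84 to 81.9 ± 7.05 RPKM and INK4 inhibitor level from 82.7 ± 2.95 to 68.4 ± 5.09 RPKM (SD, n = 4, given without a test). The ratio of CIP/KIP to E-type cyclin level lay between 9.69 and 15.5 with DMSO and between 4.19 and 5.03 with PR-957. The ratio of CIP/KIP to D-type cyclin level lay between 1.19 and 1.32 with DMSO and between 0.981 and 1.17 with PR-957. The ratio of INK4 inhibitors to the sum of CDK4 and CDK6 ranged from 0.416 to 0.552 and from 0.365 to 0.426, so these ranges overlapped. Such ratios do not depend on how libraries are scaled.

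**Figure D3:**
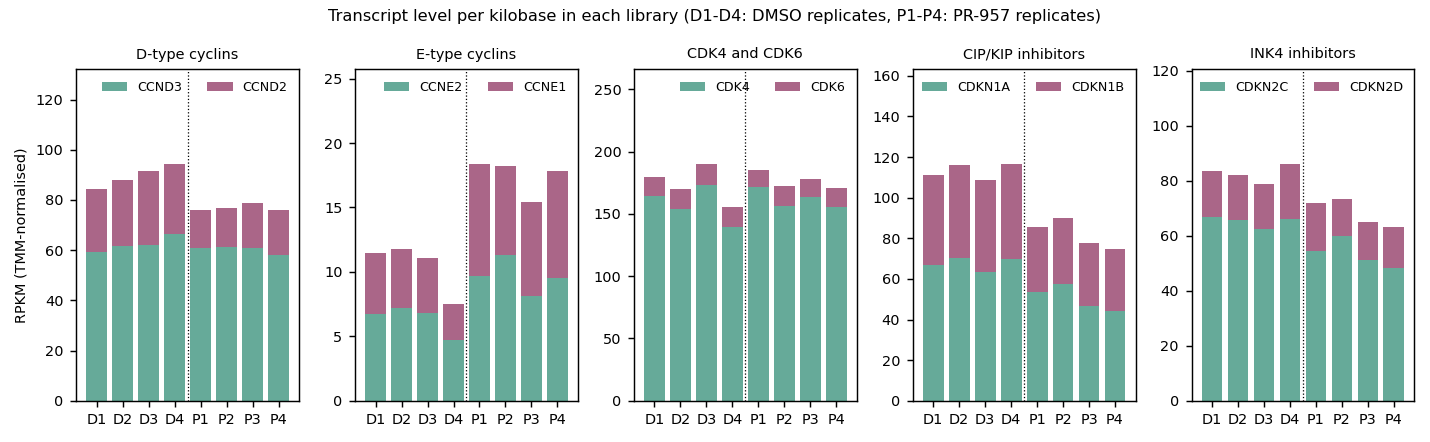
Transcript level per kilobase (RPKM, vertical axes, each from 0) of paired family members stacked in each of the 4 DMSO (D1 to D4) and 4 PR-957 (P1 to P4) libraries. The summed E-type cyclins are higher and the summed CIP/KIP inhibitors lower in each PR-957 library than in each DMSO library, while CDK4 and CDK6 overlap.

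The members spanned a wide range of levels per kilobase. The order below depends on annotated exon length, from 1425 bases for CDKN2D to 12074 for CDK6. In DMSO libraries CDK4 came first, followed by CDKN1A at 67.6 ± 3.12, CDKN2C at 65.3 ± 1.86 and CCND3 at 62.4 ± 3.01 RPKM, 3 neighbours whose libraries overlapped. CDKN1B at 45.5 ± 1.07 and CCND2 at 27.1 ± 1.88 RPKM were separate from their neighbours. CDKN2D at 17.4 ± 1.86 and CDK6 at 16.4 ± 0.65 RPKM overlapped, as did CCNE2 at 6.35 ± 1.12 and CCNE1 at 4.10 ± 0.873 RPKM. CDK4 was 38.5 times as high as CCNE1. In PR-957 libraries CCND3 came second at 60.2 ± 1.53 RPKM, ahead of CDKN2C at 53.5 ± 5.0 and CDKN1A at 50.5 ± 6.21 RPKM, with overlap among all these neighbours. CCND2 at 16.7 ± 1.45 RPKM then overlapped with CDKN2D at 14.9 ± 1.66 RPKM.

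Several members share exon bases with a gene on the opposite strand. TSPAN31 covers 57.8% of the exon bases of CDK4, and GPR19 and LOC105369663 together cover 50.1% of those of CDKN1B. The authors counted fragments on the reverse strand. Counts of GPR19 and LOC105369663 were between 8 and 38 per library, and DINOL, which covers 8.42% of CDKN1A, had at most 1 count per library, where CDKN1A had at least 2225. TSPAN31 had 329 to 771 counts. No member shares exon bases with a gene on the same strand, and none is placed on an alternate contig.

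To place the members in their pathway, other genes of the G1 to S transition were examined in lists by role. The lists were chosen with earlier results of these data known, so their called shares are not independent evidence. Of 9 other cyclins, CDKs and activators, 8 were tested, of which 4 rose and 2 fell by the same edgeR threshold, with a median log2 fold change of 0.17. The called share was 75%, against 46.6% of all tested genes. CCNA1, a cyclin of germ cells that is also found in myeloid leukemia, rose from 5.01 ± 0.913 to 14.1 ± 0.278 CPM (log2 fold change 1.49, SE 0.13, edgeR adjusted p = 1.54e-08). CDC25A, the phosphatase that activates CDK2, rose from 32.9 ± 2.37 to 58.3 ± 6.43 CPM (log2 fold change 0.83, SE 0.08, edgeR adjusted p = 8.53e-08). CDK2, the kinase partner of E-type cyclins, rose as well, with a log2 fold change of 0.42 (SE 0.06, edgeR adjusted p = 5.45e-06), and CCNA2, which follows the E-type cyclins on CDK2 in S phase, with 0.34 (SE 0.06, edgeR adjusted p = 7.4e-05). The 2 that fell were CCNH and MNAT1 of the CDK-activating kinase, with log2 fold changes of -0.27 and -0.30 (edgeR adjusted p = 0.00382 and 0.00324). CDK1 was not called (log2 fold change -0.004, edgeR adjusted p = 0.961). CDK7 had 4 to 12 counts per library and was not tested. It is also placed on an alternate contig, so its level is unknown.

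Of the other CDK inhibitors, CDKN1C had 0 counts in all libraries and is placed on an alternate contig too, and CDKN2B had 3 to 14 counts per library, so neither was tested. CDKN2A, which encodes p16 and p14ARF, had 6.83, 7.02, 14.9 and 11.8 CPM with DMSO and 15.99, 13.3, 25.8 and 26.9 CPM with PR-957. Within replicates 1 and 2 and within replicates 3 and 4 each PR-957 library was above each DMSO library, but over all 8 libraries the groups overlapped. The log2 fold change was 1.02 (SE 0.36, edgeR adjusted p = 0.0581). Alone, replicates 1 and 2 gave 1.08 (adjusted p = 4.86e-08) and replicates 3 and 4 gave 0.99 (adjusted p = 3.25e-05), in a range of adjusted p from 2.64e-09 to 0.135 over 19 alternatives. The call was also made without DMSO replicate 3 (0.0351) or PR-957 replicate 2 (0.0384). The table has a single row for the gene, so its transcripts cannot be told apart.

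Among pocket proteins, E2F factors and their DP partners, 12 of 13 genes were tested, with 3 higher and 3 lower and a median of 0.10. The called share of 50% was close to the 46.6% of all tested genes. RB1 itself, the substrate of the G1 kinases, fell from 109 ± 7.86 to 83.2 ± 7.21 CPM (log2 fold change -0.39, SE 0.07, edgeR adjusted p = 8.04e-05). E2F8, a repressor that E2F activators induce, and E2F1, an activator, had the largest called changes, with log2 fold changes of 0.90 (SE 0.07) and 0.45 (SE 0.08) and edgeR adjusted p of 2.61e-09 and 0.000126. TFDP1, a partner of E2F factors, had a log2 fold change of 0.29 (edgeR adjusted p = 0.000587). Without DMSO replicate 4, log2 fold changes were 0.87 for E2F8, 0.37 for E2F1 and 0.24 for TFDP1, each still called. E2F2 had at most 5 counts per library and a second placement, and was not tested.

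Of 16 textbook E2F target genes of S phase entry, 14 were higher and 1 lower, with a median of 0.31 (edgeR, adjusted over all tested genes). Their called share was 93.8%, where 46.6% of all tested genes were called and 23.1% were higher. This list too was chosen with earlier results known. PCNA, the DNA polymerase clamp, rose from 254 ± 26.1 to 401 ± 15.5 CPM (log2 fold change 0.66, SE 0.07, edgeR adjusted p = 1.82e-07), and the helicase subunit MCM4 rose with a log2 fold change of 0.60 (SE 0.06, edgeR adjusted p = 1.34e-07). CDT1, a replication licensing factor, was the gene that fell, from 207 ± 11.4 to 137 ± 10.6 CPM (log2 fold change -0.59, SE 0.06, edgeR adjusted p = 2.5e-07). Without DMSO replicate 4, log2 fold changes were 0.59 for PCNA, 0.55 for MCM4 and -0.63 for CDT1, each still called.

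Ubiquitin ligase subunits that act on G1 cyclins, p21 or p27 were called in 6 of 14 genes, 2 higher and 4 lower, with a median of 0.02. Their share of 42.9% was close to the 46.6% of all tested genes. UBAC1, a subunit of the ligase that acts on p27 in G1, rose with a log2 fold change of 0.53 (SE 0.07, edgeR adjusted p = 7.58e-06). RNF123 of the same ligase was not called (log2 fold change 0.15, edgeR adjusted p = 0.0847). Within the SCF ligase that targets p27 for destruction, the recognition subunit SKP2 rose from 56.0 ± 4.19 to 73.5 ± 2.77 CPM (log2 fold change 0.39, edgeR adjusted p = 3.92e-05). Its cofactor CKS1B fell from 102 ± 2.85 to 76.7 ± 5.21 CPM (log2 fold change -0.41, edgeR adjusted p = 9.84e-06). Without DMSO replicate 4, log2 fold changes were 0.46 for UBAC1, 0.35 for SKP2 and -0.40 for CKS1B, each still called.

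Upstream regulators of these genes were called in 7 of 11 cases, 2 higher and 5 lower, with a median of -0.26. Their called share was 63.6%, against 46.6% of all tested genes. FOXO3, an activator of CDKN1B, fell from 72.0 ± 4.11 to 46.6 ± 2.68 CPM (log2 fold change -0.63, SE 0.06, edgeR adjusted p = 1.44e-07). FOXO1 and FOXO4 were not called (log2 fold changes -0.21 and 0.06, edgeR adjusted p = 0.0927 and 0.739). MYC, which is known to act at CDK4 and CCND2 and to repress CDKN1A, fell with a log2 fold change of -0.57 (SE 0.06, edgeR adjusted p = 3.37e-07). The sequence upstream of CCND2 was not examined. SP1, which binds GC boxes, had a log2 fold change of -0.32 (SE 0.07, edgeR adjusted p = 0.000751). The 2 that rose were KLF4 (log2 fold change 0.36, edgeR adjusted p = 0.00343) and MDM2 (0.15, edgeR adjusted p = 0.0203). Whether changes of these regulators were linked to those of the members was not tested.

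**Figure D4:**
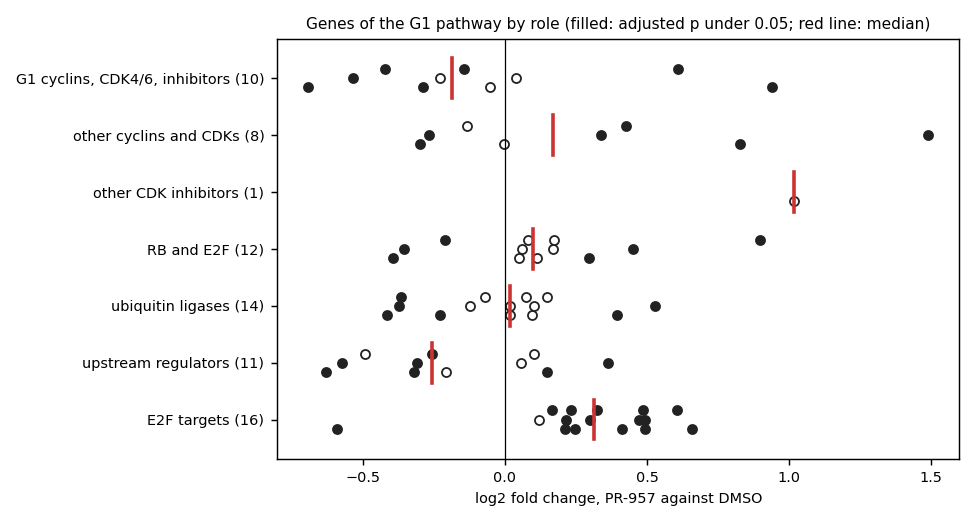
Log2 fold change between PR-957 and DMSO (horizontal axis) of genes in 7 role groups, with the number of tested genes in parentheses. Filled points had an adjusted p under 0.05, open points did not, and red lines are medians, which run from -0.26 for upstream regulators to 0.31 for E2F targets apart from the single tested gene among other CDK inhibitors.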

How the data were processed

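RNA-sequencing libraries of MOLM-13 cells (4 DMSO, 4 PR-957) were grouped by their sample titles. Per the labels, the authors trimmed reads with Trimmomatic 0.39 and aligned them to hg38 with STAR 2.7.10a. They counted fragments with featureCounts 2.0.1 (both ends mapped, reverse strand, RefSeq models). The deposited values were raw counts per gene, and the deposited exon length of each gene served as length. A second deposited table held the authors' own DESeq2 comparison and was not used. Of the gene rows, 6 held no values.

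Counts were tested with edgeR 4.0.16 under R 4.3.3 (robust glmQLFit and two-sided glmQLFTest, TMM scaling, filterByExpr, no covariate), with Benjamini-Hochberg adjustment over 13179 genes. SE was taken as |log2 fold change| over the root of the F statistic. CPM and RPKM were TMM-normalised, except summed marker levels, and are given as mean ± SD (n = 4). The script was tested on simulated data. No replicate pair matched within sampling noise (lowest chi-square per gene 3.33).

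Members and lists were chosen with earlier results of these data known. Named were all members and the 2 largest called changes in each other list, with genes that were not tested. CDK2, CCNA2, CCND1, CDKN2A, RB1, TFDP1, CDT1, SKP2 and SP1 were added after their values were seen. So were CCNH, MNAT1, CDK1, KLF4, MDM2, RNF123, FOXO1 and FOXO4. A result for an upstream regulator is not reported here. Alternatives were DESeq2 1.42.0, limma-voom (limma 3.58.1), RLE, upper quartile or total scaling, no filter, at least 1 CPM in at least 4 libraries, a replicate block, replicates 1 and 2 against 3 and 4 as a term or alone, and each library left out.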

Additional observations from a re-analysis of the deposited data

Results flagged for a closer look

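In 20 groups of 4 libraries (10 genes, 2 treatments), 2 libraries stood apart from the rest by Dixon's test (critical value 0.829), which flags about 1 in 20 groups by chance. CCND3 in PR-957 replicate 4 was 183 CPM, with 192 to 194 CPM in the other PR-957 libraries. CDKN2D in DMSO replicate 4 was 28.7 CPM, with 23.3 to 23.6 CPM in the other DMSO libraries. Without these libraries the log2 fold changes were -0.04 for CCND3 and -0.15 for CDKN2D, and neither was called (edgeR adjusted p = 0.625 and 0.175).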

How the results depend on the processing

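Over 19 alternatives, CCND2, CCNE1, CCNE2, CDKN1A, CDKN1B and CDKN2C kept their direction and their call, with edgeR, DESeq2 or limma-voom adjusted p of at most 0.0115. The sign of CCND3 turned with library totals alone (0.0242) and in replicates 1 and 2 only (0.0101), and that of CDK4 without DMSO replicate 4 (-0.0187, with up to 0.0852 when another library was left out), none of them called, and the cause was not tested. Among other CDK inhibitors 1 gene, CDKN2A, was called in place of 0 with DESeq2, library totals alone, the replicate block, the term for replicates 1 and 2 against 3 and 4, and in each of these pairs of replicates alone. Leaving out 1 library gave 0 to 1 such calls. Upstream regulators gave 4 calls in replicates 3 and 4 only, against 7 in all libraries and 8 when replicates 1 and 2 stood alone, and the cause was not tested. At an unadjusted p under 0.05 edgeR called CDKN2A, and limma-voom did not call it after adjustment (0.062). The labels do not say what a replicate number stands for. Same-numbered libraries correlated with r of 0.151, 0.213, 0.098 and 0.198, and 7 of 8 libraries correlated best with their own number, a hint of shared origin from the data and not from the design. Of 12 pairs with different numbers, 10 correlated less than every same-numbered pair. Correlations were positive within replicates 1 and 2 and within replicates 3 and 4 (0.074 to 0.213). Between these sets they were negative (-0.187 to -0.041). The study names no covariate, and 1 same-numbered pair was not over 0.1, so the fit without the block was kept. The replicate block called 6913 genes in place of 6143, with 2 members higher and 6 lower. It put CDKN2D (edgeR adjusted p = 0.0233) and CDKN2A (3.14e-09) past the threshold, and gave 1 more call each among ubiquitin ligases, upstream regulators and E2F targets. The term for replicates 1 and 2 against 3 and 4 called 6668 genes, among them CDKN2D (edgeR adjusted p = 0.0377) and CDKN2A (2.64e-09). The main fit left the spread between these sets in its error, with an SE for CDKN2A of 0.36 against 0.097 with the term. CCNE1 had the fewest counts of the members, 126 to 313 per library.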

Other observations

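The antisense partner of CDK4 moved apart from it. TSPAN31, whose exons overlap those of CDK4 on the opposite strand, had a log2 fold change of -0.42 (SE 0.10, edgeR adjusted p = 0.00145), whereas that of CDK4 was 0.04. CDK6-AS1 had 63 to 125 counts per library and was not called (log2 fold change 0.29, SE 0.17, edgeR adjusted p = 0.163).

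Among all other tested genes, 3 had a profile over the 8 libraries closest to that of CCNE1, by the root mean square difference of centred log2 CPM. They were GPAT3, SCUBE1 and SNHG12, with differences of 0.131, 0.137 and 0.145 on the log2 scale, and their log2 fold changes were 0.90, 0.88 and 0.87. GPAT3 was low, at 0.736 CPM with DMSO and 1.35 CPM with PR-957 on average.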
